A study of Mus musculus with 2 samples.

Results

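The liver X receptors (LXRs) and the classical genes they control were followed here in sorted mouse spleen cells with and without Ch25h, the gene of the enzyme that makes 25-hydroxycholesterol. The set was fixed by gene name. It holds the 2 receptor genes, Nr1h2 (LXR beta) and Nr1h3 (LXR alpha), and 8 target genes, Abca1, Abcg1, Mylip, Lpcat3, Apoe, Pltp, Arl4c and Smpdl3a. All 10 names were found once each among the 30538 genes of the count table. RNA sequencing was done on 1 library of Ch25h-/- mice and 1 library of C57BL/6 mice. All mice had received 100000 Listeria monocytogenes into a vein, and at day 3 about 100000 spleen cells per library were sorted as CD11b-positive, Ly6G-negative and Ly6C-low. The labels call the sorted cells resident macrophages. They give no uninfected group, and neither the sex and age of the mice nor how many mice went into a library.

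The LXRs are nuclear receptors that bind DNA together with a retinoid X receptor (RXR) and are switched on by oxysterols, which are oxidised forms of cholesterol. 25-hydroxycholesterol is one such ligand. When activated in macrophages, LXRs raise genes that move cholesterol out of the cell, hand it to lipoproteins, lower its uptake and remodel membrane phospholipids. Without ligand, the receptors hold corepressors on many of these genes. In the mouse spleen, LXR alpha is needed for the macrophages of the marginal zone.

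The targets split into a lower group and a level group. Apoe was 3.01-fold lower and Pltp 2.05-fold lower in the Ch25h-/- library, and the exporter gene Abca1 was 1.83-fold lower. Abcg1 was 1.31-fold lower. Mylip, Lpcat3, Arl4c and Smpdl3a lay within 1.13-fold of the C57BL/6 library in either direction, and so did the receptor gene Nr1h3. Nr1h2 was 1.22-fold lower. Because each genotype has a single library, nothing here has a replicate check or a p-value. The values below compare these libraries, and their 95% intervals cover counting error only.

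The best known DNA element of LXR is a repeat of the half-site AGGTCA with 4 bases between the copies, called DR4. RefSeq promoter windows (GRCm38.p6, from 250 bases before to 50 bases after an annotated start) were searched on both strands for a relaxed form, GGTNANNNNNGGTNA, in which N is any base. The strict form, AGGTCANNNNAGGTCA, is contained in the relaxed one. Of 27025 genes with a window, 0.818% held the relaxed form and 0.0148% the strict form in at least 1 window. Windows were found for 8 of the 10 genes, but not for Abcg1 and Smpdl3a. Among these 8, Abca1 held a relaxed match, and none held the strict form. The sequences of the 3 lowest targets are shown because they carry the largest differences between the libraries. They are printed 5' to 3' on the strand of the gene, from 250 bases before the start to the last base before it, with the match in capitals.
Abca1, chr4:53159896-53160145, minus strand: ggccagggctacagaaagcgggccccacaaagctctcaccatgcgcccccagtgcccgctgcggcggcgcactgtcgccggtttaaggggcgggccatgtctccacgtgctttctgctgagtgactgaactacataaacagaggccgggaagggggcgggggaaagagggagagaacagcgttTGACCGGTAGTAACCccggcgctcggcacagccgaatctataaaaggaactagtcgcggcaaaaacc
Apoe, chr7:19699189-19699438, minus strand: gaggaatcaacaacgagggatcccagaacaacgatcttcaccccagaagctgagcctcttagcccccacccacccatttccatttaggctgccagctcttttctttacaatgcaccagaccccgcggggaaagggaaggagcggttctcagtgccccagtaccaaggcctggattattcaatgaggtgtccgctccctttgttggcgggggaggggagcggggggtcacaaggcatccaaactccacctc
Pltp, chr2:164857709-164857958, minus strand: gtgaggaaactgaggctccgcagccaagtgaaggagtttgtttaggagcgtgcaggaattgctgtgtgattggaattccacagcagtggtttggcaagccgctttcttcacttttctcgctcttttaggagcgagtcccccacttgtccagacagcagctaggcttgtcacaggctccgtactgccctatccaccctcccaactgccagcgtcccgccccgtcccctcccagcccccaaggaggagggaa
The Abca1 match runs from 67 to 53 bases before the start, at chr4:53159948-53159962, and reads as the motif on the strand opposite to the gene. Apoe has 3 windows, of which the most upstream is shown. No window of Apoe or Pltp held these letters, which says nothing about more distant elements.

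Among 21 other genes reported as LXR targets, 11 had a window and 3 held the relaxed form. These were Srebf1, the gene of the transcription factor SREBP1, Fasn, the gene of fatty acid synthase, and Acsl3, the gene of a fatty acid activating enzyme. They are set beside the Abca1 site because the capitals there and in Fasn are the same letters. Each is written on the strand of its gene, with the bases of the match in capitals.
Abca1: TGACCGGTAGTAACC
Fasn, chr11:120824758-120824772: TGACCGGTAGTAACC
Srebf1, chr11:60210639-60210653: TGACCGCCAGTAACC
Acsl3, chr1:78657713-78657727: TGACCCATAGTAACC
The genes with this element did not share a direction. Abca1 had a log2 ratio (Ch25h-/- over C57BL/6) of -0.87, Fasn one of 0.10 (interval 0.04 to 0.17), Srebf1 one of 0.20 (0.10 to 0.30) and Acsl3 one of -0.22 (-0.71 to 0.26). Fasn had 224 CPM (counts relative to library size, scaled with TMM factors) in the Ch25h-/- library and 209 CPM in the C57BL/6 library. Srebf1 had 105 CPM in the Ch25h-/- library and 91.6 CPM in the C57BL/6 library, and its exons share 109 bases with Rai1 on the opposite strand. Acsl3 was low, at 4.17 CPM in the Ch25h-/- library and 4.85 CPM in the C57BL/6 library. It shares 244 exon bases with Utp14b on the same strand, which had 57 counts in the Ch25h-/- library and 102 in the C57BL/6 library, so its count is uncertain.

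The depth was 15986392 gene counts in the Ch25h-/- library and 16957371 in the C57BL/6 library. Ch25h itself had 0 counts in the Ch25h-/- library (exact Poisson interval up to 3.69 counts) and 3 counts in the C57BL/6 library (0.619 to 8.77), so at this depth the gene does not check the genotype labels. A gene was taken as measured at a mean of at least 1 CPM over both libraries, which 11972 genes and all 10 LXR genes and targets reached. A gene was called lower or higher when its libraries differed at least 2-fold and the interval lay on 1 side of 0 on the log2 scale. Of the measured genes, 5.77% were called lower and 2.07% higher in the Ch25h-/- library. By the interval alone, whatever the size, 27.5% were lower and 31.0% higher. Of the 10 genes, 2 were called lower and 0 higher. By the interval alone, 5 were lower (Apoe, Pltp, Abca1, Abcg1 and Nr1h2) and 3 higher (Mylip, Lpcat3 and Arl4c). Their median log2 ratio was -0.22, against 0.01 over all measured genes. The plot of CPM by library gives the levels behind these calls.

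**Figure D1:**
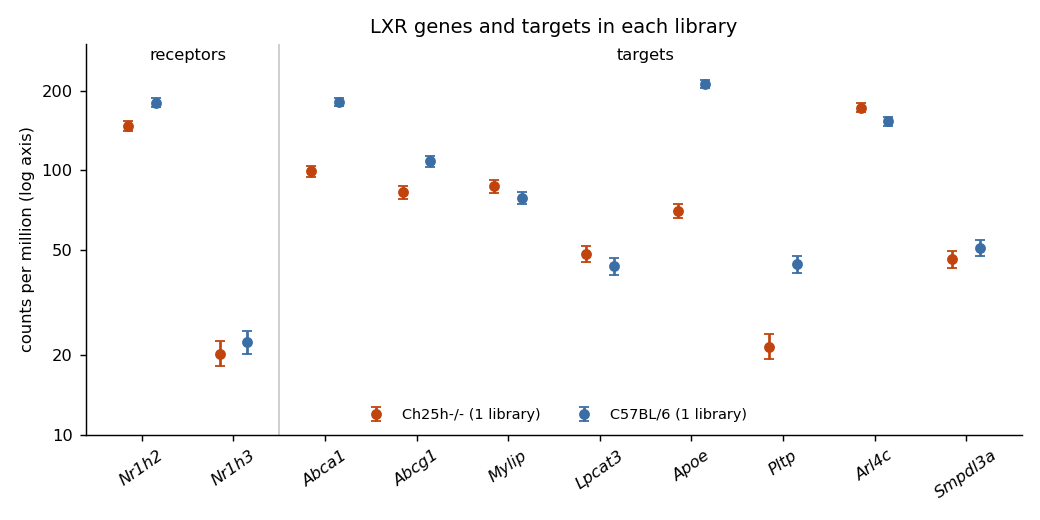
Level in CPM (log axis) of the 2 receptor genes and 8 target genes, with the Ch25h-/- library left of the C57BL/6 library for each gene. Points are single libraries and bars are exact Poisson 95% intervals of the count. Apoe, Pltp and Abca1 are the genes whose points lie furthest apart.

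Nr1h2 (ENSMUSG00000060601, GRCm38 chromosome 7, 44549616 to 44553951) was the leading receptor gene in both libraries. It had 2334 counts in the Ch25h-/- library and 3085 in the C57BL/6 library, which is 147 CPM in Ch25h-/- and 180 CPM in C57BL/6. The log2 ratio was -0.29 (-0.37 to -0.21). Nr1h3 (ENSMUSG00000002108, chromosome 2, 91184061 to 91202834) had 322 counts (20.3 CPM) in the Ch25h-/- library and 384 counts (22.4 CPM) in the C57BL/6 library. Its log2 ratio of -0.14 had an interval from -0.36 to 0.07, so no difference was detectable at this depth. The change of Nr1h3 minus that of Nr1h2 was 0.15 on the log2 scale (-0.08 to 0.38), so the receptor genes are not told apart by their change. Nr1h2 took 87.9% of the counts of both receptor genes in the Ch25h-/- library (86.6 to 89.1%, exact binomial interval) and 88.9% in the C57BL/6 library (87.8 to 90.0%). Per kilobase of exon, its level was 5.43 times that of Nr1h3 in the Ch25h-/- library and 6.03 times in the C57BL/6 library.

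The genes of lipid carriers had the lowest ratios. Apoe (ENSMUSG00000002985, chromosome 7, 19696109 to 19699188) encodes apolipoprotein E, the protein that macrophages secrete with lipid and that lipoprotein receptors recognise. It had 1114 counts (70.3 CPM) in the Ch25h-/- library and 3619 counts (211 CPM) in the C57BL/6 library. Its log2 ratio was -1.59 (-1.69 to -1.49), and 2.16% of measured genes had a lower one. Pltp (ENSMUSG00000017754, chromosome 2, 164839518 to 164857711) encodes phospholipid transfer protein, which moves phospholipid between lipoproteins. It had 342 counts (21.6 CPM) in the Ch25h-/- library and 756 counts (44.2 CPM) in the C57BL/6 library. Its log2 ratio of -1.03 had an interval from -1.22 to -0.85, which holds the 2-fold threshold, so its call rests on a narrow margin. Pltp exons share 495 bases with Ctsa on the opposite strand, and whether counting used strand is not given in the sources used here. Ctsa had 3234 counts in the Ch25h-/- library and 4032 in the C57BL/6 library. Counts from the shared stretch cannot be assigned.

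The exporter genes were both lower, by different amounts. Abca1 (ENSMUSG00000015243, chromosome 4, 53030787 to 53159895) encodes the pump that loads cholesterol and phospholipid onto lipid-poor apolipoprotein A-I. It had 1571 counts (99.2 CPM) in the Ch25h-/- library and 3105 counts (181 CPM) in the C57BL/6 library. The log2 ratio was -0.87 (-0.96 to -0.78), whole on the lower side but short of 2-fold. It stood lower than that of all but 7.19% of measured genes. Abcg1 (ENSMUSG00000024030, chromosome 17, 31057675 to 31117988) encodes the transporter that passes cholesterol to mature high-density lipoprotein. It had 1307 counts (82.5 CPM) in the Ch25h-/- library and 1847 counts (108 CPM) in the C57BL/6 library, a log2 ratio of -0.39 (-0.49 to -0.28). The log2 ratio of Abcg1 was 0.48 above that of Abca1 (0.35 to 0.62), a difference that does not depend on the scaling of the libraries. Abca1 took 54.6% of the counts of both exporters in the Ch25h-/- library (52.7 to 56.4%) and 62.7% in the C57BL/6 library (61.3 to 64.1%).

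The genes of uptake and membrane remodelling were level or slightly higher. Mylip (ENSMUSG00000038175, chromosome 13, 45389742 to 45412022) encodes the ubiquitin ligase that sends the low-density lipoprotein receptor for breakdown. It had 1376 counts (86.9 CPM) in the Ch25h-/- library and 1342 counts (78.4 CPM) in the C57BL/6 library, a log2 ratio of 0.15 (0.04 to 0.26). Lpcat3 (ENSMUSG00000004270, chromosome 6, 124663027 to 124704418) encodes an acyltransferase that puts polyunsaturated chains into membrane phospholipids. It had 766 counts (48.4 CPM) in the Ch25h-/- library and 743 counts (43.4 CPM) in the C57BL/6 library, a log2 ratio of 0.16 (0.01 to 0.30). Its exons share 334 bases with Emg1 on the opposite strand, which had 831 counts in the Ch25h-/- library and 780 in the C57BL/6 library.

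Arl4c and Smpdl3a also differed little. Arl4c (ENSMUSG00000049866, chromosome 1, 88673125 to 88702221) encodes a small GTPase of membrane traffic. It had 2732 counts (172 CPM) in the Ch25h-/- library and 2612 counts (153 CPM) in the C57BL/6 library, a log2 ratio of 0.18 (0.10 to 0.25). Smpdl3a (ENSMUSG00000019872, chromosome 10, 57794335 to 57811830) encodes a secreted phosphodiesterase related to acid sphingomyelinase. It had 731 counts (46.1 CPM) in the Ch25h-/- library and 871 counts (50.9 CPM) in the C57BL/6 library. Its log2 ratio of -0.14 had an interval from -0.29 to 0.00.

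**Figure D2:**
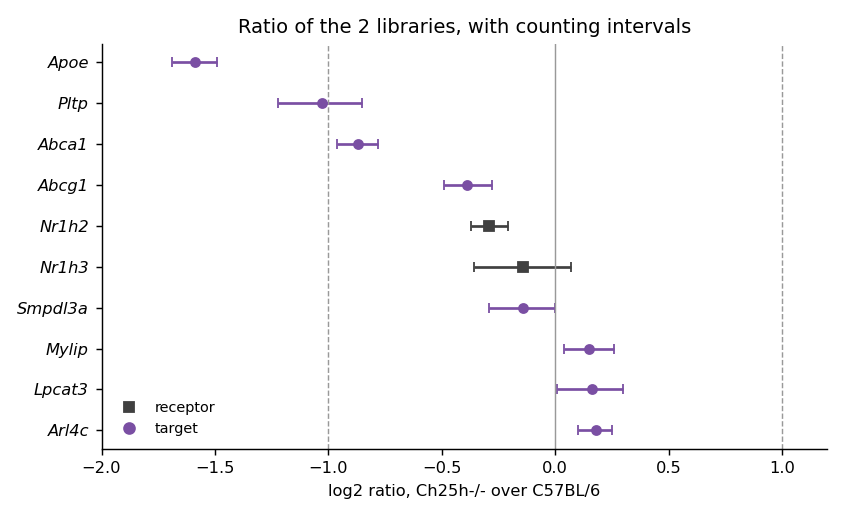
Log2 ratio of the Ch25h-/- library over the C57BL/6 library for each gene, ordered from lowest to highest down the page, with exact 95% counting intervals. Squares are receptor genes, circles are target genes, and dashed lines mark 2-fold. Apoe lies wholly beyond the lower line, and the interval of Pltp crosses it.

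Sorted by ratio and set against their neighbours, the genes can be laid out in 4 steps. These steps only describe the order, because the sorting used the same ratios and genes within a step can differ. Of 9 neighbouring pairs, 3 had a difference whose counting interval excluded 0. Pltp stood 0.56 above Apoe on the log2 scale (0.34 to 0.77), Abcg1 stood 0.48 above Abca1, and Mylip stood 0.29 above Smpdl3a (0.11 to 0.47). Pltp and Abca1 were not told apart (0.16, -0.05 to 0.37). Nor were Mylip, Lpcat3 and Arl4c, where Arl4c stood 0.03 above Mylip (-0.11 to 0.16). Between them came Abcg1, Nr1h2, Nr1h3 and Smpdl3a, whose neighbours were not told apart although Smpdl3a stood 0.25 above Abcg1 (0.07 to 0.42). Over all 45 pairs, 37 intervals excluded 0. The same share was not computed over pairs of other genes, so these counts of pairs cannot be read as a trait of the LXR set. Counting intervals are narrow at this depth, and by the interval alone 27.5% of all measured genes were lower and 31.0% higher. The plot of all measured genes shows how these steps lie among genes of other function.

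**Figure D3:**
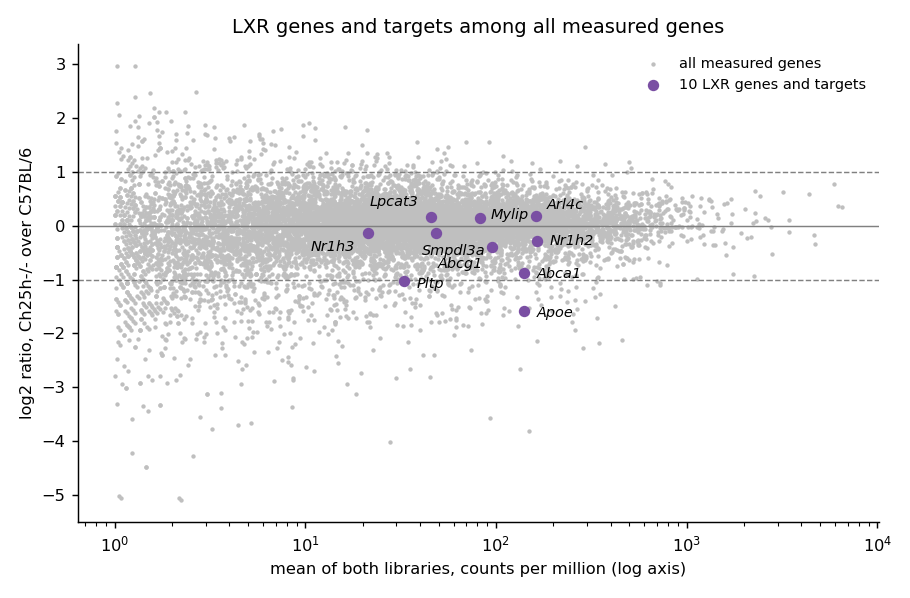
Log2 ratio of the Ch25h-/- library over the C57BL/6 library against the mean level in CPM (log axis), with 11972 measured genes in grey and the 10 LXR genes and targets in purple. Dashed lines mark 2-fold. All 10 have means of at least 21.4 CPM, and Apoe and Pltp are the members beyond the lower line.

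The order of the levels also differed between the libraries. Per kilobase of exon, Nr1h2 was highest in the Ch25h-/- library at 43.9 CPM per kilobase, followed by Apoe at 32.9, Arl4c at 31.4, Mylip at 26.9 and Smpdl3a at 22.3. Then came Lpcat3 at 14.8, Abcg1 at 11.3, Abca1 at 9.57, Pltp at 8.43 and Nr1h3 at 8.08. In the C57BL/6 library Apoe was highest at 98.9 CPM per kilobase, followed by Nr1h2 at 53.8, Arl4c at 27.8, Smpdl3a at 24.6 and Mylip at 24.3. Then came Abca1 at 17.5, Pltp at 17.2, Abcg1 at 14.8, Lpcat3 at 13.3 and Nr1h3 at 8.92. Neighbours that did not differ beyond counting error were Apoe and Arl4c, and Pltp and Nr1h3, in the Ch25h-/- library. In the C57BL/6 library they were Smpdl3a and Mylip, and Abca1 and Pltp. Nr1h3 was the lowest of the 10 in both libraries.

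The 8 targets together had 627 CPM in the Ch25h-/- library and 870 CPM in the C57BL/6 library, a log2 ratio of the sums of -0.47 (-0.51 to -0.44). Apoe was 141 CPM lower and Abca1 82.3 CPM lower in the Ch25h-/- library, so these genes make up most of the difference in the sum. Apoe took 11.2% of the target counts in the Ch25h-/- library (10.6 to 11.8%) and 24.3% in the C57BL/6 library (23.6 to 25.0%). Arl4c took 27.5% in the Ch25h-/- library (26.6 to 28.4%) and 17.5% in the C57BL/6 library (16.9 to 18.2%). The stacked plot shows these shares, which are of counts and take no account of exon length. Per kilobase of exon, Apoe was the highest target in both libraries, though not told apart from Arl4c in the Ch25h-/- library. The log2 ratio of Arl4c itself was 0.18, so its larger share mostly reflects the smaller total.

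**Figure D4:**
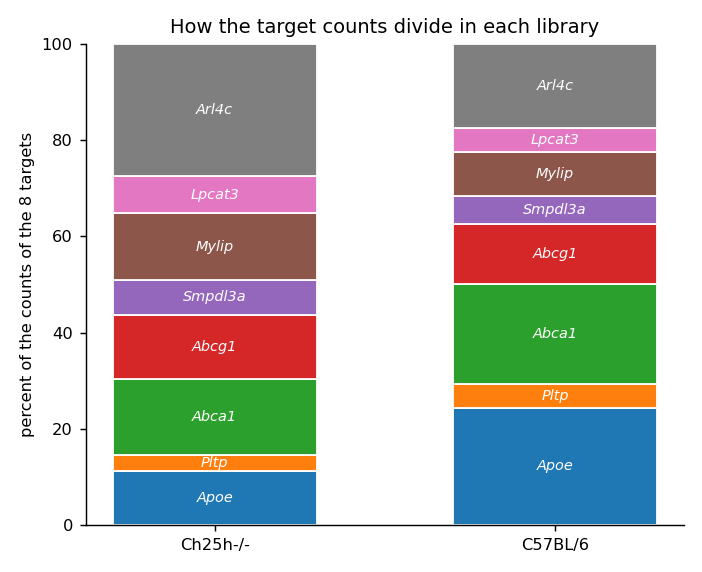
Percent of the counts of the 8 target genes that each gene took, in the Ch25h-/- library (left) and the C57BL/6 library (right). Apoe is the largest block in the C57BL/6 library at 24.3%, and Arl4c in the Ch25h-/- library at 27.5%.

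The partners of LXR were nearly level. Of 14 listed RXRs, corepressors and coactivators, 13 were measured, 0 were called either way, and the median log2 ratio was -0.11. By the interval alone 7 were lower and 3 higher. The most abundant were Ncor1, a corepressor gene, with 549 CPM in the Ch25h-/- library and 519 CPM in the C57BL/6 library (log2 ratio 0.08), and Ncoa3, a coactivator gene, with 244 CPM in Ch25h-/- and 290 CPM in C57BL/6 (-0.25). Ncoa3 shares 154 exon bases with Sulf2 on the opposite strand. The RXR genes were looked up after the values were seen. Rxrb had 57.6 CPM in the Ch25h-/- library and 75.7 CPM in the C57BL/6 library (-0.39, interval -0.52 to -0.27). Rxra had 21.1 CPM in Ch25h-/- and 18.6 CPM in C57BL/6 (0.18, -0.04 to 0.41), and Rxrg had 0 counts in both.

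Of the 21 other reported LXR targets, 13 were measured and 0 were called lower or higher. Their median log2 ratio was -0.25. By the interval alone 6 were lower and 3 higher (Srebf1, Fasn and Gramd1b). The most abundant were Tgm2, the gene of tissue transglutaminase, with 296 CPM in the Ch25h-/- library and 455 CPM in the C57BL/6 library (-0.62, interval -0.67 to -0.57), and Scd1, a stearoyl-CoA desaturase gene, with 235 CPM in Ch25h-/- and 452 CPM in C57BL/6 (-0.94). Tgm2 shares 370 exon bases with Rprd1b on the opposite strand. The genes beside Apoe on chromosome 7 were scarce. Apoc2 had 37 counts in the Ch25h-/- library and 68 in the C57BL/6 library (-0.77, -1.39 to -0.17), Apoc1 had 5 counts in Ch25h-/- and 4 in C57BL/6, and Apoc4 had 0 in both. Apoc2 shares exon bases with the read-through gene model Gm44805.

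Other genes of sterol handling were mostly level. Of 18 listed, 15 were measured, with a median log2 ratio of 0.03, and by the interval alone 6 were lower and 3 higher. The only one called, in the lower direction, was Lrp1, the gene of a large receptor that takes up apolipoprotein E particles, with 139 CPM in the Ch25h-/- library and 292 CPM in the C57BL/6 library (-1.07, with the whole interval on the lower side). The most abundant were Gramd1a, a sterol transfer gene, with 430 CPM in Ch25h-/- and 410 CPM in C57BL/6 (0.07), and Abca7, a transporter gene related to Abca1, with 404 CPM in Ch25h-/- and 445 CPM in C57BL/6 (-0.14). Of 12 genes that make or clear LXR ligands, 9 were measured, with a median log2 ratio of -0.18. By the interval alone 4 were lower and 3 higher, and 2 were called lower. Cyp39a1, an oxysterol hydroxylase gene, had 36 counts in the Ch25h-/- library and 98 in the C57BL/6 library (-1.33, -1.93 to -0.77). Hsd3b7, which acts on hydroxylated sterols on the way to bile acids, had 200 counts in Ch25h-/- and 441 in C57BL/6 (-1.03, -1.28 to -0.79). The exons of Hsd3b7 are overlapped by other gene models on both strands. The most abundant of that list were Sult2b1, a sterol sulfotransferase gene, with 100 CPM in Ch25h-/- and 68.7 CPM in C57BL/6 (0.55, 0.44 to 0.66), and Ebp, a cholesterol synthesis gene, with 38.2 CPM in Ch25h-/- and 30.3 CPM in C57BL/6 (0.34). Sult2b1 shares 243 exon bases with Lmtk3 on the opposite strand.

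Markers of tissue macrophages and dendritic cells were lower in sum alongside the lower targets. In these bulk samples, fewer cells of a type and less RNA per cell cannot be told apart. Red pulp macrophage markers summed to 225 CPM in the Ch25h-/- library and 365 CPM in the C57BL/6 library, a log2 ratio of the sums of -0.70, with 5 of 13 measured genes called lower. Hmox1 and Axl, the most abundant, stood at -0.66 and 0.01. By the interval alone 10 of the red pulp markers were lower and 1 higher, Slc40a1 at 0.72 (0.38 to 1.07). Marginal zone and metallophilic markers summed to 53.8 CPM in Ch25h-/- and 105 CPM in C57BL/6 (-0.97), with Siglec1 at -1.08, Msr1 at -0.49, 2 of 4 measured genes called lower and Cd209b at 0 counts in both. Conventional dendritic cell markers summed to 783 CPM in Ch25h-/- and 1812 CPM in C57BL/6 (-1.21), with 7 of 9 called lower. Their most abundant genes, Fscn1 and Itgax, stood at -2.13 and 0.30. Most of the C57BL/6 sum came from Fscn1 (171 CPM in Ch25h-/-, 746 in C57BL/6) and Ccr7 (109 in Ch25h-/-, 413 in C57BL/6). Too scarce to be measured were Xcr1 (6 counts in Ch25h-/-, 0 in C57BL/6), Clec9a (13 in Ch25h-/-, 5 in C57BL/6) and Cd209a (5 in Ch25h-/-, 11 in C57BL/6). The part of these cells in the ratios of Apoe, Pltp, Abca1 and Abcg1 was not tested.

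General macrophage and monocyte markers summed to nearly the same level, 2072 CPM in the Ch25h-/- library and 2028 CPM in the C57BL/6 library (0.03). Their median log2 ratio was -0.24, opposite in sign to the ratio of the sums. Of these 7 genes 0 were called, while by the interval alone 4 were lower (Csf1r, Spi1, Cybb and Cd68, from -0.44 to -0.24) and 2 higher (Itgam at 0.31 and Lyz2 at 0.60). Ly6C-low monocyte markers summed to 3122 CPM in Ch25h-/- and 2648 CPM in C57BL/6 (0.24), but here too the median was -0.24. By the interval alone 7 of these 10 genes were lower, among them Fcgr4 at -1.13, the 1 called, Ear2 at -0.76 and Ace at -0.42. The 3 higher ones were Cx3cr1 at 0.62 and the most abundant of the list, Itgal at 0.41 and Spn at 0.52. Ly6C-high monocyte markers summed to 2960 CPM in Ch25h-/- and 2043 CPM in C57BL/6 (0.54, with 2 of 7 called higher, and Chil3 at 0.63). The sorted cells also held other lineages. Per kilobase of exon, 9 NK cell markers summed to 12905 CPM in the Ch25h-/- library and 8036 CPM in the C57BL/6 library, while the 7 general macrophage and monocyte markers summed to 650 CPM in Ch25h-/- and 585 CPM in C57BL/6. The NK cell sum thus stood above the macrophage sum in both libraries, which the labels call resident macrophages. Most of the NK cell sum came from granzyme genes. Per kilobase, Gzma had 5242 CPM in Ch25h-/- and 3497 in C57BL/6, and Gzmb 5173 in Ch25h-/- and 3033 in C57BL/6. Prf1 and Il2rb also lay above every macrophage marker. Others, such as Klrb1c (143 in Ch25h-/-, 74.9 in C57BL/6) and Eomes (52.8 in Ch25h-/-, 35.2 in C57BL/6), lay within the range of the macrophage markers. The log2 ratio of the summed NK cell CPM was 0.69, with 3 of 9 called higher.

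The remaining marker lists had log2 ratios of their summed CPM, Ch25h-/- over C57BL/6, of 0.77 for neutrophils, -0.70 for B cells, -1.17 for plasma cells, -1.52 for eosinophils, 0.42 for T cells, -0.41 for plasmacytoid dendritic cells and 0.84 for erythroid cells. They were -0.53 for platelets and megakaryocytes and 0.15 for endothelial and stromal cells. Only 1 of 6 erythroid genes (Car2) and 1 of 4 platelet genes (Itga2b, -0.64) were measured. The scarce Ppbp (7 counts in Ch25h-/-, 1 in C57BL/6) and Gp1bb (6 in Ch25h-/-, 1 in C57BL/6) leaned the other way from Itga2b. Pecam1 made up nearly all of the endothelial and stromal sum, 446 of 456 CPM in Ch25h-/- and 402 of 410 CPM in C57BL/6. For T cells and for endothelial and stromal cells the median log2 ratio had the opposite sign, at -0.23 and -0.02. The eosinophil genes were scarce, summing to 9.34 CPM in Ch25h-/- and 26.8 CPM in C57BL/6, and uneven. Epx (-3.78), Prg2 (-3.67) and Il5ra (-0.91) were lower. Siglecf (-0.08, -0.87 to 0.70) and Ccr3 (0.18, -0.47 to 0.82) had no detectable difference. Early response and heat shock genes, which can be raised by cell handling, summed to 1529 CPM in the Ch25h-/- library and 3633 CPM in the C57BL/6 library (-1.25), with 6 of 10 called lower. Their part in the ratios of the LXR targets was not tested either.

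**Figure D5:**
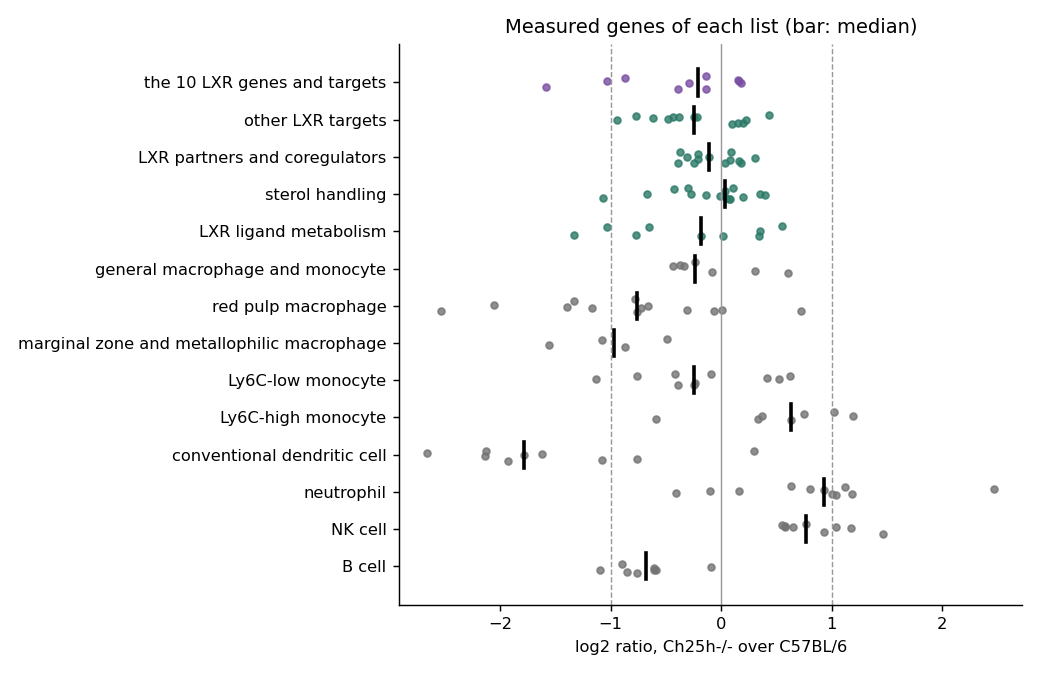
Log2 ratio of the Ch25h-/- library over the C57BL/6 library for each measured gene of the 10 LXR genes and targets (purple), 4 related gene lists (green) and 9 cell type marker lists (grey), with black bars at the medians and dashed lines at 2-fold. The LXR genes and targets have a median of -0.22, red pulp macrophage markers one of -0.76 and NK cell markers one of 0.77.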

How the data were processed

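Per the labels' protocols, RNA was taken from the sorted cells with TRIzol, and the KAPA RNA HyperPrep kit was used for the libraries. The submitters' processing notes name GSNAP, FastQC 0.11.9, edgeR 3.26.8, Subread 1.5.2 and featureCounts on GRCm38 (mm10). The strand setting is not given in the sources used here. The authors deposited whole read counts per gene, used as given. Positions and exon lengths (the union over transcripts) come from GENCODE M21, which holds 30126 of the 30538 gene IDs.

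CPM values use TMM factors of 0.991 for Ch25h-/- and 1.01 for C57BL/6 (edgeR 4.0.16, R 4.3.3). Ratios have no prior count, and their intervals are exact Clopper-Pearson intervals (scipy 1.17.1). Differences between genes use the conditional exact odds ratio. No molecular identifiers were counted, so reads may repeat a molecule. The calculation was tested on simulated data.

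The genes, lists and alternatives were chosen with earlier results of these data known. The naming rule takes the 10 LXR genes and targets, the called and the 2 most abundant genes of each related list, and the 2 most abundant of each marker list. The last are given here for the macrophage, monocyte, conventional dendritic cell and NK cell lists only. Any other gene was named after its value was seen. With 2 libraries a gene's pattern is 1 ratio, so no genes are named for likeness of pattern. Promoter sequences are from RefSeq (GRCm38.p6). Scaling, the filter on low values, the prior count and the call rule were varied, with DESeq2 1.42.0 for one scaling.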

Additional observations from a re-analysis of the deposited data

How the results depend on the processing

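The 8 alternatives were 4 other scalings, both filters, the prior count and a stricter call rule. The scalings were by upper quartile, by total counts, by DESeq2 and by TMM without abundant lineage genes. All 80 recomputed log2 ratios of the 10 LXR genes and targets stayed within their counting intervals and moved by at most 0.03. Most of this was fixed in advance. The filters and the stricter rule leave each ratio unchanged by construction. Each scaling moves all genes by the same amount, the largest being -0.03 for total counts. The 1 call that changed was that of Pltp, at -1.03, whose interval is not wholly beyond 2-fold. That stricter rule left 1 of the 10 genes called lower, Apoe. Over all genes it gave 318 lower and 67 higher, against 691 lower and 248 higher under the chosen settings, and by its construction it can only remove calls. A filter at 5 CPM, which tests fewer genes, gave 347 lower and 120 higher and left all 10 genes measured. With no filter beyond 1 count, 1031 genes were called lower and 435 higher, and among the other LXR targets 1 was called lower (Abcg4, 7 counts in Ch25h-/- and 21 in C57BL/6) and 1 higher (Pnpla3, 8 counts in Ch25h-/- and 0 in C57BL/6). No library could be left out, since each genotype has 1. No paired analysis was possible because each genotype has 1 library. Depth limits the scarce genes, such as Apoc1 and Ch25h, for which no difference could be read.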
